A study of Mus musculus with 7 samples.

Results

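Genes that make cyclic AMP (cAMP) or respond to it were followed in mouse left atria that overexpress FOG2. The 10 genes are the adenylyl cyclases Adcy5, Adcy6 and Adcy9, the protein kinase A subunits Prkaca, Prkacb, Prkar1a and Prkar2a, and the Popeye genes Bves, Popdc2 and Popdc3. They were chosen by name for their place in cAMP synthesis and binding, and all 10 were found among the 24421 genes of the count table. FOG2, encoded by Zfpm2, is a zinc-finger cofactor of GATA transcription factors. RNA was sequenced from left atria of adult CD1 mice, with 4 libraries of genotype FOG2 Overexpression and 3 of genotype WT. The labels name DTG and NTG animals kept without doxycycline for 1 week before harvest and do not spell these names out. Neither the promoter that drives the transgene nor the cells in which it acts is given in the sources used here. Whether every library came from its own animal is not stated, so p-values reflect only the variation among these 7 libraries, part of which may be technical.

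Adenylyl cyclases are membrane enzymes that convert ATP to cAMP, and stimulatory and inhibitory G proteins set their activity downstream of adrenergic and muscarinic receptors. cAMP binds the regulatory subunits of protein kinase A (PKA), which then free the catalytic subunits to phosphorylate calcium channels, ryanodine receptors, phospholamban and sarcomere proteins in heart muscle. Popeye proteins are membrane proteins of striated muscle that bind cAMP through a domain of their own, and loss of Popdc1 (Bves) or Popdc2 in mice is known for stress-induced slowing of the sinus node.

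Zfpm2, the overexpressed gene, stood at 31.7, 30.9 and 29.4 CPM (counts scaled to the library's adjusted total) in wild type replicates 1 to 3. It stood at 140.1, 222, 262 and 246 CPM in overexpression replicates 1 to 4, a log2 fold change of 2.82 ± 0.22 (SE, adjusted p = 0.000205, edgeR), so every library matched its label. Gene counts per library summed to between 5562520 and 8655655, and a single count was worth 0.111 to 0.174 CPM. Wild type replicate 2 and overexpression replicate 1 carried Y-linked reads (514 and 567 CPM) and the other 5 libraries carried under 1 CPM, so both groups held both sexes. Overexpression replicate 1 stood apart, with correlations of 0.947 to 0.949 with the other overexpression libraries, which correlated at 0.978 to 0.983 with each other. Of the 17 listed atrial cardiomyocyte markers 16 were tested. Bmp10 was too low, with 3 counts in total in wild type and 7 in overexpression. The 17 summed to 162700 to 190600 CPM in wild type and 102400 to 143900 CPM in overexpression. In bulk tissue, fewer cells of a type and less RNA per cell cannot be told apart.

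Of the 10 genes, Adcy9 rose with FOG2 overexpression and no other passed the test. The test was edgeR's quasi-likelihood F test with a Benjamini-Hochberg adjusted p under 0.05 over 13295 genes. That is 1 of 10 called higher and 0 of 10 called lower, beside 1.55% of all tested genes called higher, 3.29% called lower and 4.84% called in either direction. DESeq2 called 2 of the 10 higher (3% of all genes) and 0 lower (4.63%), and limma-voom called 1 higher (1.38%) and 0 lower (3.27%). At an unadjusted p under 0.05, Adcy9 and Adcy5 were higher and Bves and Popdc3 were lower, and across all tested genes that threshold took 9.14% higher and 10% lower. The fold changes were 5 positive and 5 negative, with a median log2 fold change of −0.03 beside 0.02 for all tested genes. The 4 and 3 libraries did not overlap for 4 of the 10 genes, with Adcy5 and Adcy9 above wild type and Prkar2a and Bves below it. Across all tested genes the libraries did not overlap for 8.99% above and 10.8% below.

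**Figure D1:**
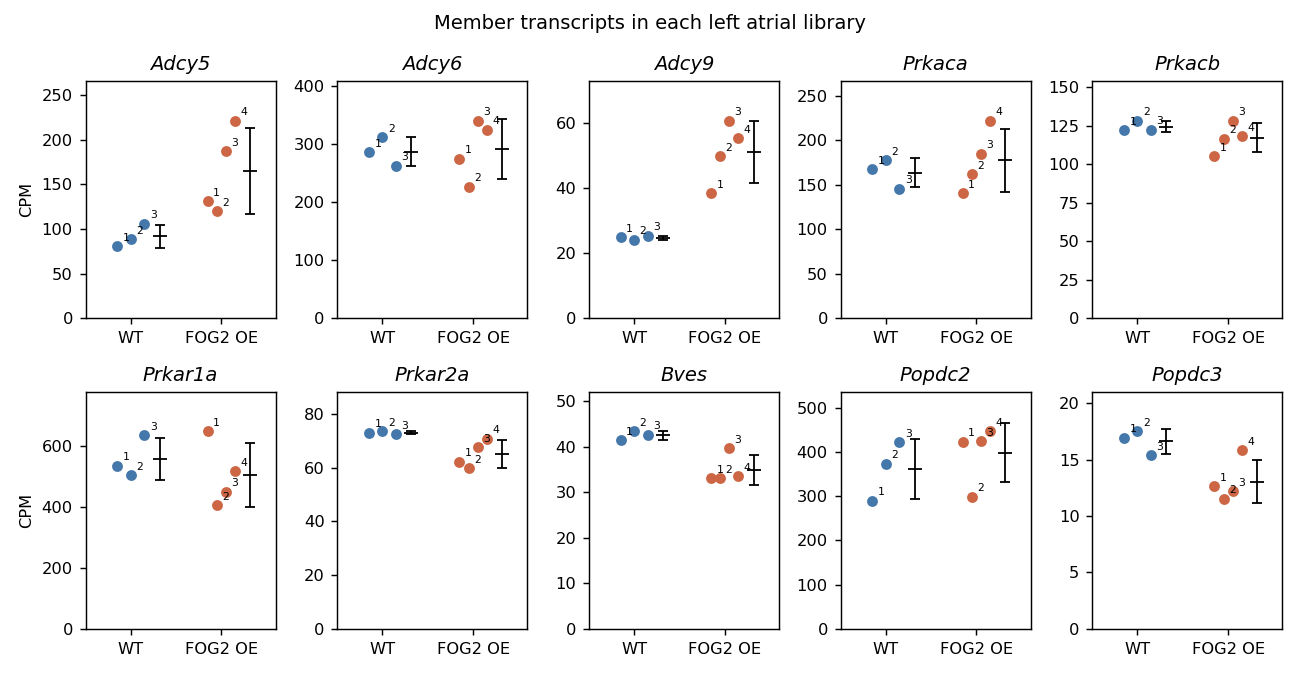
The level of each of the 10 genes in CPM (vertical axes, from 0) in every library, with wild type (WT) in blue and FOG2 overexpression (OE) in orange; small numbers are replicate numbers and bars are the mean ± SD. All 4 overexpression libraries lie above all wild type libraries for Adcy5 and Adcy9, and all 4 lie below them for Prkar2a and Bves.

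Adcy9 encodes a widely expressed adenylyl cyclase that is little stimulated by forskolin and is found in a complex with the anchoring protein yotiao (Akap9) and the KCNQ1 channel. The gene lies on chromosome 16 from 4287529 to 4420498 on the minus strand (mm10, GENCODE M21). It stood at 24.8, 24.2 and 25.4 CPM in the wild type libraries, from 208, 171 and 206 counts. The overexpression libraries held 38.4, 49.7, 60.7 and 55.3 CPM, from 346, 344, 349 and 475 counts. The lowest overexpression library was above the highest wild type library, and overexpression replicate 1, which also had the lowest Zfpm2 of its group, was the lowest of the 4. The group means were 24.8 ± 0.611 (SD, n = 3) and 51.0 ± 9.53 CPM (SD, n = 4). The fold change was 2.05, with a 95% confidence interval of 1.61 to 2.62, and the log2 fold change was 1.04 ± 0.15 (SE, adjusted p = 0.0057, edgeR). Adcy9 was called higher under all 19 alternative settings, with log2 fold changes of 0.95 to 1.45 and adjusted p from 1.23e-06 to 0.0385. In the 5 female libraries alone its log2 fold change was 1.14 (adjusted p = 0.00052, edgeR), where it was the only one of the 10 genes called higher (2.19% of all genes) and 0 were called lower (3.07%).

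Adcy5 encodes, with Adcy6, one of the main cyclases of heart muscle, and both are inhibited by calcium. Its gene lies on chromosome 16 from 35154877 to 35305738 on the plus strand. Its level was 81.0, 88.8 and 106.0 CPM in the wild type libraries, against 131.2, 119.7, 187.2 and 221.5 CPM with FOG2 overexpression. The groups did not overlap, but the overexpression libraries ranged widely, with replicates 3 and 4 well above replicates 1 and 2. The means were 91.9 ± 12.8 (SD, n = 3) and 165 ± 47.9 CPM (SD, n = 4), a log2 fold change of 0.84 ± 0.22 (SE, 95% interval 0.34 to 1.34). The adjusted p was 0.0686 (edgeR), outside the threshold. Adcy5 passed with DESeq2 (adjusted p = 0.00545) and when libraries were scaled by their totals (adjusted p = 0.0247) or by sarcomere genes (adjusted p = 0.000283). It also passed with edgeR without overexpression replicate 1 (adjusted p = 0.0401) and without overexpression replicate 2 (adjusted p = 0.0419). In total Adcy5 passed under 6 of the 19 alternatives and not under the other 13. It did not pass with edgeR without wild type replicate 1 (0.242), 2 (0.249) or 3 (0.116). The same held without overexpression replicate 3 (0.148) or 4 (0.106) and in female libraries only (0.153). Without overexpression replicate 1, 3.74% of all genes were called higher and 4.99% lower.

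The promoter windows of both genes are shown because Adcy9 and Adcy5 had the largest fold changes of the 10 genes. Each runs from 250 bases before to 50 bases after the annotated start, 5′ to 3′ on the gene's strand (RefSeq, GRCm38.p6). The Adcy9 window is chr16:4420449-4420748 on the minus strand, and the Adcy5 window is chr16:35154614-35154913 on the plus strand. Capitals mark the letters TGACG, the first 5 bases of the palindromic cAMP response element TGACGTCA.
Adcy9: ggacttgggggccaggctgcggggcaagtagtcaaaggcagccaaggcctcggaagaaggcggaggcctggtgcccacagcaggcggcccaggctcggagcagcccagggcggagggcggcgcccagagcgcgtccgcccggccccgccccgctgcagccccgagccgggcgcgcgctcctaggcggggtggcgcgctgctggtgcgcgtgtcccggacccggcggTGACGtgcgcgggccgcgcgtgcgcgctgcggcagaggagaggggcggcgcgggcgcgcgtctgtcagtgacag
Adcy5: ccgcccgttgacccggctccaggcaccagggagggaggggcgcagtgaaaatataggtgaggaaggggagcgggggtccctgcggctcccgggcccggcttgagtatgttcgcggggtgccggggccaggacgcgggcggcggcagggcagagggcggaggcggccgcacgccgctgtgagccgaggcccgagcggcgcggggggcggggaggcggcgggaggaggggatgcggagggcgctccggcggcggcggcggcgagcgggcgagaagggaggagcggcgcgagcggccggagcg
The windows are 78.3% and 79% G or C, against a median of 52.7% over all 32851 windows of this length. The Adcy9 window held 1 TGACG, which begins 24 bases before the start, and 20.8% of all windows held it on either strand. Neither window held the full TGACGTCA (1.79% of all windows), which itself contains TGACG. Neither held a GATA motif, searched on both strands as the letters GATA with an A or T just before and an A or G just after, and found in 29.8% of all windows. Neither held the T-box motif AGGTGT, found in 13.7% of all windows. These matches describe letters only, and no binding was measured. Windows were listed for 7 of the 10 genes. TGACG was also in windows of Prkaca, Prkacb, Prkar1a and Prkar2a, which did not pass the test, and the full TGACGTCA was in windows of Prkar1a. A GATA motif was in windows of Popdc2, Prkaca, Prkacb and Prkar1a, and AGGTGT in a window of Prkar1a.

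Adcy6 lies on chromosome 15 from 98589973 to 98610076 on the minus strand. Its level was 286, 312 and 263 CPM in the wild type libraries and 275, 226, 341 and 325 CPM in the overexpression libraries. The groups overlapped fully, with both the lowest and the highest library in the overexpression group. The fold change was 1.02 with a 95% interval of 0.806 to 1.28 (adjusted p = 0.949, edgeR). An exon of Adcy6 overlaps the antisense gene Gm29331, and the strand setting of the counting is not given, so reads of this stretch cannot be told apart.

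The counts of Adcy5 and Adcy6 were also set against each other within each library, which does not depend on how libraries are scaled. There were 0.283, 0.285 and 0.403 counts of Adcy5 per count of Adcy6 in wild type, and 0.477, 0.529, 0.550 and 0.681 in overexpression. Every overexpression library was above every wild type library, and the geometric mean went from 0.319 to 0.554, a log2 difference of 0.80. The two-sided exact permutation p was 0.0286, the smallest that 35 splits of 4 and 3 libraries can give, and 0.171 after adjustment over the 6 ratios computed. A single ratio that separates the groups fully cannot go below 0.171 in this design, so the adjusted value says nothing about the stability of the difference.

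Counts per kilobase of exon were summed over all 10 cyclase genes of the table to describe the make-up of cyclase transcripts. Adcy6 made up 44.8%, 45.4% and 39.2% of this sum in wild type and 33.9%, 32.4%, 34.5% and 33.4% in overexpression. Adcy5 made up 12.0%, 12.2% and 14.9% in wild type and 15.3%, 16.2%, 17.9% and 21.5% in overexpression. Adcy9 made up 5.07%, 4.59% and 4.94% in wild type and 6.18%, 9.27%, 8.01% and 7.40% in overexpression. The share of Adcy6 was lower, and those of Adcy5 and Adcy9 were higher, in every overexpression library than in any wild type library. Shares that sum to a whole move against each other, and they were not tested. Adcy1, a calcium-stimulated cyclase known from pacemaker cells, made up 16.1% ± 1.44 (SD, n = 3) and 18.4% ± 2.62 (SD, n = 4). Adcy7 made up 12.6% ± 1.57 and 15.2% ± 4.07 over the same libraries.

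**Figure D2:**
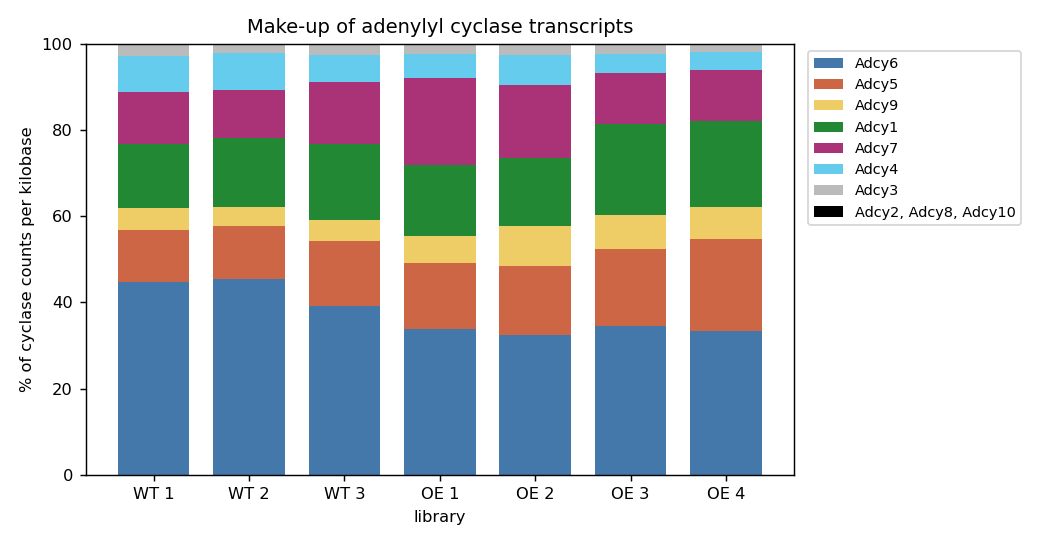
Share of each adenylyl cyclase gene in the summed cyclase counts per kilobase of exon (vertical axis, percent) in the 3 wild type (WT) and 4 overexpression (OE) libraries. The Adcy6 share is 39.2% to 45.4% in wild type and 32.4% to 34.5% in overexpression, while those of Adcy5 and Adcy9 are larger in overexpression.

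None of the 4 PKA subunit genes passed the test (edgeR 0 of 4, 0 at an unadjusted p under 0.05, 0 with DESeq2 and 0 with limma-voom), and their fold changes lay between 0.89 and 1.08. Prkaca and Prkacb encode the alpha and beta catalytic subunits. Prkaca (chromosome 8, 83972993 to 83996443, plus strand) stood at 167, 178 and 146 CPM in the wild type libraries and 140.4, 162, 185 and 222 CPM in the overexpression libraries, with overlapping groups. Its fold change was 1.08 with a 95% interval of 0.849 to 1.38 (adjusted p = 0.73, edgeR). Prkacb (chromosome 3, 146729574 to 146812990, minus strand) stood at 122, 128 and 123 CPM in the wild type libraries and 105, 117, 128 and 118 CPM in the overexpression libraries. Those groups overlapped too, and its fold change was 0.941 with a 95% interval of 0.814 to 1.09 (adjusted p = 0.653, edgeR).

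Prkar1a and Prkar2a encode type I and type II regulatory subunits, which hold the catalytic subunits inactive until cAMP binds. Prkar1a (chromosome 11, 109649405 to 109669656, plus strand) stood at 536, 504 and 636 CPM in the wild type libraries and 649, 406, 450.1 and 518 CPM in the overexpression libraries. Overexpression replicate 1 held the highest value of all 7 libraries and replicate 2 the lowest. The fold change of Prkar1a was 0.906 with a 95% interval of 0.696 to 1.18 (adjusted p = 0.689, edgeR). Prkar2a (chromosome 9, 108689314 to 108750436, plus strand) stood at 73.0, 73.6 and 72.5 CPM in the wild type libraries and 62.2, 59.8, 67.7 and 70.9 CPM in the overexpression libraries. All 4 overexpression libraries were below wild type, whose libraries lay within about 1 CPM of each other. The fold change of Prkar2a was 0.892 with a 95% interval of 0.772 to 1.03 (adjusted p = 0.372, edgeR).

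The balance between subunits was compared within libraries. Prkaca counts per Prkacb count had a geometric mean of 1.31 in wild type and 1.495 in overexpression (exact permutation p = 0.314, adjusted 0.6). Prkar1a counts per Prkar2a count had geometric means of 7.61 and 7.66 (exact permutation p = 1, adjusted 1), with overexpression replicate 1 the highest at 10.4. The summed regulatory over summed catalytic counts per kilobase were 1.67, 1.49 and 2.19 in wild type and 2.34, 1.32, 1.29 and 1.27 in overexpression. Of the 4 overexpression libraries, 3 were below every wild type library and replicate 1 was above every one. The log2 difference of this last ratio was −0.23 (exact permutation p = 0.4, adjusted 0.6), and without overexpression replicate 1 it was −0.44. Within the 4 regulatory subunit genes, Prkar1a held 90.0% ± 1.17 (SD, n = 3) of the counts per kilobase in wild type and 88.4% ± 2.75 (SD, n = 4) in overexpression.

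None of the 3 Popeye genes passed the test with edgeR, DESeq2 or limma-voom, although Bves and Popdc3 had an unadjusted p under 0.05. Bves encodes Popdc1, also called blood vessel epicardial substance. Its gene (chromosome 10, 45335772 to 45372479, plus strand) stood at 41.4, 43.4 and 42.6 CPM in the wild type libraries and 33.1, 33.1, 39.7 and 33.5 CPM in the overexpression libraries. Every overexpression library was below every wild type library, and replicate 3 was nearest to wild type. The fold change was 0.819 with a 95% interval of 0.699 to 0.961, and the adjusted p was 0.163 (edgeR). Popdc3 (chromosome 10, 45178098 to 45318452, plus strand) lies upstream of Bves on the same strand, with 17319 bases between the annotated genes. It stood at 16.9, 17.5 and 15.4 CPM in the wild type libraries and 12.7, 11.6, 12.2 and 15.8 CPM in the overexpression libraries, where replicate 4 overlapped wild type. Its fold change was 0.788 with a 95% interval of 0.627 to 0.991 (adjusted p = 0.242, edgeR).

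Popdc2 (chromosome 16, 38362209 to 38378216, plus strand) had the most counts per kilobase of the 3 Popeye genes. It stood at 290, 373 and 423 CPM in the wild type libraries and 423, 299, 424 and 447 CPM in the overexpression libraries, with overlapping groups and overexpression replicate 2 apart from the other 3. Its fold change was 1.102 with a 95% interval of 0.841 to 1.44 (adjusted p = 0.704, edgeR). Popdc2 counts per Bves count went from a geometric mean of 8.42 to 11.3 (exact permutation p = 0.114, adjusted 0.343). Popdc3 counts per Bves count had geometric means of 0.391 and 0.373 (exact permutation p = 0.657, adjusted 0.789). Exons of Popdc2 overlap the same-strand gene Gm21987 and those of Popdc3 the antisense gene Gm15934, so reads there cannot be assigned to 1 gene with certainty.

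Levels of different genes were compared as CPM per kilobase of exon. In wild type, Popdc2 was highest at 153 ± 28.5 (SD, n = 3), followed by Prkar1a at 129 ± 15.9, Prkaca at 65.7 ± 6.61 and Adcy6 at 42.3 ± 3.60. Prkacb (14.2 ± 0.395), Adcy5 (12.8 ± 1.79), Prkar2a (11.5 ± 0.0817), Bves (9.21 ± 0.217) and Popdc3 (7.98 ± 0.525) followed, and Adcy9 was lowest at 4.77 ± 0.118. Neighbours whose wild type ranges overlapped were Popdc2 and Prkar1a, Prkacb and Adcy5, and Adcy5 and Prkar2a. In overexpression the first 4 kept their order. Adcy5 stood at 23.0 ± 6.67 CPM per kilobase (SD, n = 4) above Prkacb at 13.4 ± 1.08, and Adcy9 stood at 9.82 ± 1.83 above Bves at 7.56 ± 0.700. The ranges of Prkar2a and Adcy9, of Adcy9 and Bves, and of Bves and Popdc3 overlapped there, as did those of Popdc2 and Prkar1a. Measured by the longest transcript instead, Adcy5 ranked below Prkar2a in wild type and below Prkacb in overexpression.

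Scaling of the libraries moved all 10 genes together. With library totals in place of TMM factors, the median log2 fold change of all tested genes was 0.15, 2 of the 10 genes were called higher (3.34% of all genes) and 0 lower (2.21%). When libraries were scaled to 33 sarcomere genes, the median of all genes was 0.46. On the sarcomere scale 4 of the 10 genes were called higher (Adcy5, Adcy9, Prkaca and Popdc2) beside 20% of all tested genes, 0 were called lower beside 1.33%, and the median of the 10 was 0.39. On that scale the log2 fold changes of Prkacb, Prkar1a, Prkar2a, Bves and Popdc3 turned positive (0.34, 0.29, 0.26, 0.14 and 0.07), each below the median of all genes. Prkacb was also positive (0.04) with library totals. Adcy9 (1.45) and Adcy5 (1.23) remained the highest of the 10. Of the sarcomere genes themselves, 9 of 33 were called lower on the TMM scale, with a median of −0.33.

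**Figure D3:**
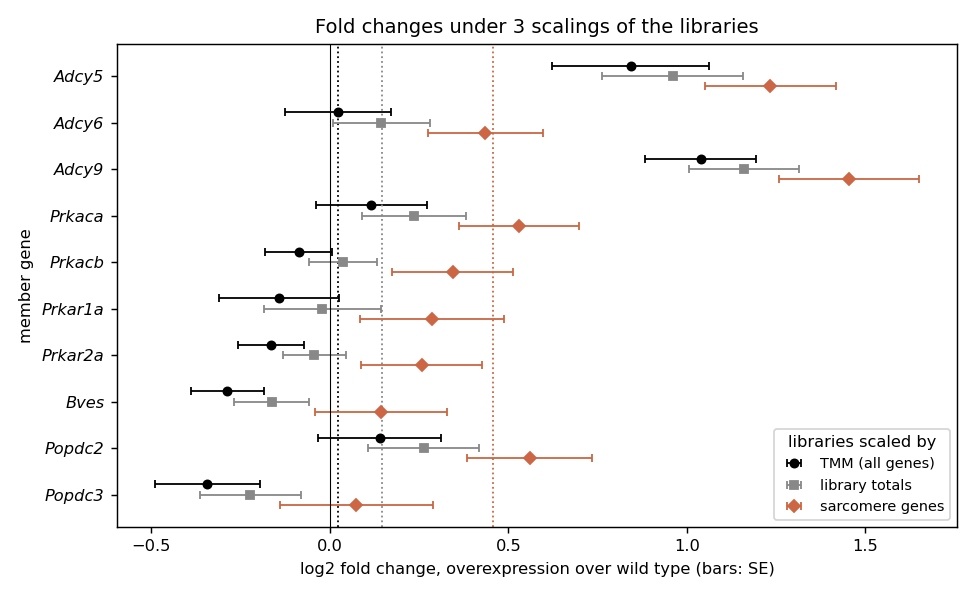
Log2 fold change of overexpression over wild type (horizontal axis) for the 10 genes under 3 scalings of the libraries, with bars of 1 SE; dotted vertical lines mark the median of all tested genes under each scaling (0.02, 0.15 and 0.46). Adcy5 and Adcy9 lie to the right of the line under all 3 scalings, and Bves and Popdc3 to the left.

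Kcnma1, Fam131a and Capns1 were named for the likeness of their log2 CPM to that of Adcy9 over the 7 libraries, as a description in which both genotypes contribute to the correlation. Kcnma1, which encodes the pore of the BK potassium channel, had a Pearson r of 0.992. It stood at 3.38 ± 0.517 CPM (SD, n = 3) in wild type and 20.5 ± 8.01 CPM (SD, n = 4) in overexpression (log2 fold change 2.59 ± 0.37 SE, adjusted p = 0.00559, edgeR). Fam131a had an r of 0.989 and rose from 16.2 ± 0.770 to 32.5 ± 5.60 CPM (adjusted p = 0.00634, edgeR). Capns1, the small subunit of calpain, had an r of 0.988, with levels of 211 ± 8.80 and 277 ± 26.1 CPM (adjusted p = 0.068, edgeR).

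Around the 10 genes, 143 other cAMP pathway genes were listed and 135 tested, of which 7 rose and 14 fell, with a median log2 fold change of 0.05, where 1.55% of all tested genes rose and 3.29% fell. DESeq2 called 17 of them higher and 18 lower (3% and 4.63% of all genes), and limma-voom called 6 and 13 (1.38% and 3.27%). Dropping wild type replicate 1 or 2 left 3 higher, dropping wild type replicate 3 left 4, dropping overexpression replicate 4 left 4, and dropping overexpression replicate 1 gave 16. The fallen genes numbered 9 once wild type replicate 1 was dropped, or 7 in the case of wild type replicate 2. None of the 4 tested other cyclases passed with edgeR or limma-voom, 1 rose with DESeq2, and 2 were higher at an unadjusted p under 0.05. Those 2 were Adcy7, at 83.4 ± 10.6 (SD, n = 3) and 127 ± 22.9 CPM (SD, n = 4, adjusted p = 0.0519, edgeR), and Adcy1, at 198 ± 22.1 and 300 ± 87.7 CPM (adjusted p = 0.187). Adcy7 passed with DESeq2 (0.00648), library totals (0.0254), sarcomere scaling (0.00446), no filter (0.0327), a Y-linked covariate (0.0439) and without overexpression replicate 1 (0.0163), and Adcy1 passed with sarcomere scaling (0.0018). Of 19 genes of G protein subunits and their regulators upstream of cyclase, 1 rose and 1 fell. Gnai1, which encodes an inhibitory alpha subunit acting on Adcy5 and Adcy6, rose from 19.8 ± 0.176 to 38.5 ± 4.64 CPM (0.96 ± 0.12 SE on the log2 scale, adjusted p = 0.0025, edgeR) and was called under all 19 alternatives. Gnao1, another inhibitory-class alpha subunit, fell from 57.3 ± 16.6 to 30.4 ± 5.57 CPM (adjusted p = 0.0472). It lost its call without wild type replicate 1 (0.147) or 2 (0.177) and without overexpression replicate 2 (0.0904), 3 (0.0998) or 4 (0.06). Gnao1 also lost it with library totals (0.0555), sarcomere scaling (0.087), limma-voom (0.0561), a Y-linked covariate (0.0637) and in female libraries only (0.0593). Gnas, the stimulatory alpha subunit, stood at 616 ± 33.6 and 643 ± 45.9 CPM (adjusted p = 0.798, and 0.0475 on the sarcomere scale).

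Downstream of cAMP, none of 5 other PKA subunit and inhibitor genes passed with edgeR or limma-voom, 1 rose with DESeq2 and 1 was higher at an unadjusted p under 0.05. Of 22 A-kinase anchoring protein genes, which tether PKA to its targets, 1 rose and 2 fell. Arfgef1, an exchange factor for ARF proteins, fell from 344 ± 51.7 (SD, n = 3) to 165 ± 5.41 CPM (SD, n = 4, adjusted p = 0.000914, edgeR). Sphkap, an anchor of type I PKA, fell from 85.4 ± 2.96 to 34.1 ± 10.3 CPM (adjusted p = 0.00908). Synm, an intermediate filament protein that binds PKA, rose from 66.2 ± 4.94 to 89.3 ± 3.95 CPM (adjusted p = 0.0303). Synm lost its call without wild type replicate 1 (0.139), 2 (0.0749) or 3 (0.112) and without overexpression replicate 2 (0.0759), 3 (0.0737) or 4 (0.0655). Akap9, whose product yotiao binds Adcy9, stood at 246 ± 3.95 and 200.2 ± 6.67 CPM with every overexpression library below wild type (adjusted p = 0.0795, and 0.00359 with DESeq2), but its log2 fold change of −0.30 was 0.14 on the sarcomere scale. None of 6 other cAMP effector genes passed with any of the 3 tools, with 1 higher and 1 lower at an unadjusted p under 0.05.

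Of 15 cAMP phosphodiesterase genes, whose enzymes break cAMP down, 2 rose and 3 fell. Pde1b went from 2.81 ± 0.729 (SD, n = 3) to 16.4 ± 1.86 CPM (SD, n = 4) and Pde1c from 85.7 ± 11.7 to 15.4 ± 6.72 CPM (adjusted p = 0.000255 and 0.00201, edgeR). Pde7a fell from 94.8 ± 19.7 to 53.3 ± 5.15 CPM (adjusted p = 0.0147), but lost its call without wild type replicate 1 (0.077) or 2 (0.0818) and on the sarcomere scale (0.102). Of 21 PKA substrate genes of cardiac muscle, 2 rose and 5 fell. Phospholamban (Pln), the brake of the calcium pump that PKA releases, fell by 1.21 on the log2 scale (adjusted p = 0.00225) and the ryanodine receptor gene Ryr2 fell by 1.13 (adjusted p = 0.00549). Kcnq1, the channel of the complex that holds Adcy9 and yotiao, fell from 44.7 ± 3.07 to 29.8 ± 4.21 CPM (adjusted p = 0.0334). Kcnq1 lost its call without wild type replicate 1 (0.0836), 2 (0.147) or 3 (0.108), without overexpression replicate 2 (0.0775) or 4 (0.0825), with library totals (0.0663), on the sarcomere scale (0.487) and in female libraries only (0.0612). Ppp1r1a, an inhibitor of protein phosphatase 1 that PKA activates, rose from 11.4 ± 1.46 to 30.9 ± 4.99 CPM (adjusted p = 0.00167). Of 9 listed genes of that phosphatase, of protein phosphatase 2A and of their regulators, 1 fell. Ppp1r3a, which targets protein phosphatase 1 to glycogen and the sarcoplasmic reticulum, went from 435 ± 57.8 to 106 ± 23.7 CPM (adjusted p = 0.000289).

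None of 10 genes of the CREB family and its coactivators, which carry cAMP signals to transcription, passed with any of the 3 tools or at an unadjusted p under 0.05. Of 16 transcripts known to be induced by cAMP, 2 rose, with a list median of 0.44 beside 0.02 for all tested genes. DESeq2 called 5 of them higher and limma-voom 1, with 0 lower. At an unadjusted p under 0.05, 6 were higher and 1 lower, beside 9.14% and 10% of all tested genes. These are transcript levels, and cAMP itself was not measured. Medians of the pathway lists ran from −0.30 for PKA substrates to 0.53 for other PKA subunits and inhibitors. Pde4b rose from 98.6 ± 5.47 (SD, n = 3) to 143 ± 13.4 CPM (SD, n = 4, adjusted p = 0.0207, edgeR) and Fos from 8.50 ± 2.37 to 29.6 ± 14.9 CPM (adjusted p = 0.0492). Pde4b lost its call without wild type replicate 1 (0.12), 2 (0.112) or 3 (0.0547) and without overexpression replicate 3 (0.0521) or 4 (0.0573). Fos lost its call without wild type replicate 1 (0.187), 2 (0.209) or 3 (0.0953) and without overexpression replicate 3 (0.0829) or 4 (0.059). Fos also lost it with no filter (0.118), a filter of CPM of at least 1 in 3 libraries (0.0511), limma-voom (0.074) and in female libraries only (0.0835). Of 13 genes whose proteins are reported to bind Popeye proteins, 1 rose (Adcy9) and 2 fell. Ndrg4 fell from 329 ± 45.3 to 151 ± 20.1 CPM (adjusted p = 0.00201), and the sodium-calcium exchanger gene Slc8a1 from 1275 ± 106 to 683 ± 116 CPM (adjusted p = 0.0111, and 0.0648 without wild type replicate 2).

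**Figure D4:**
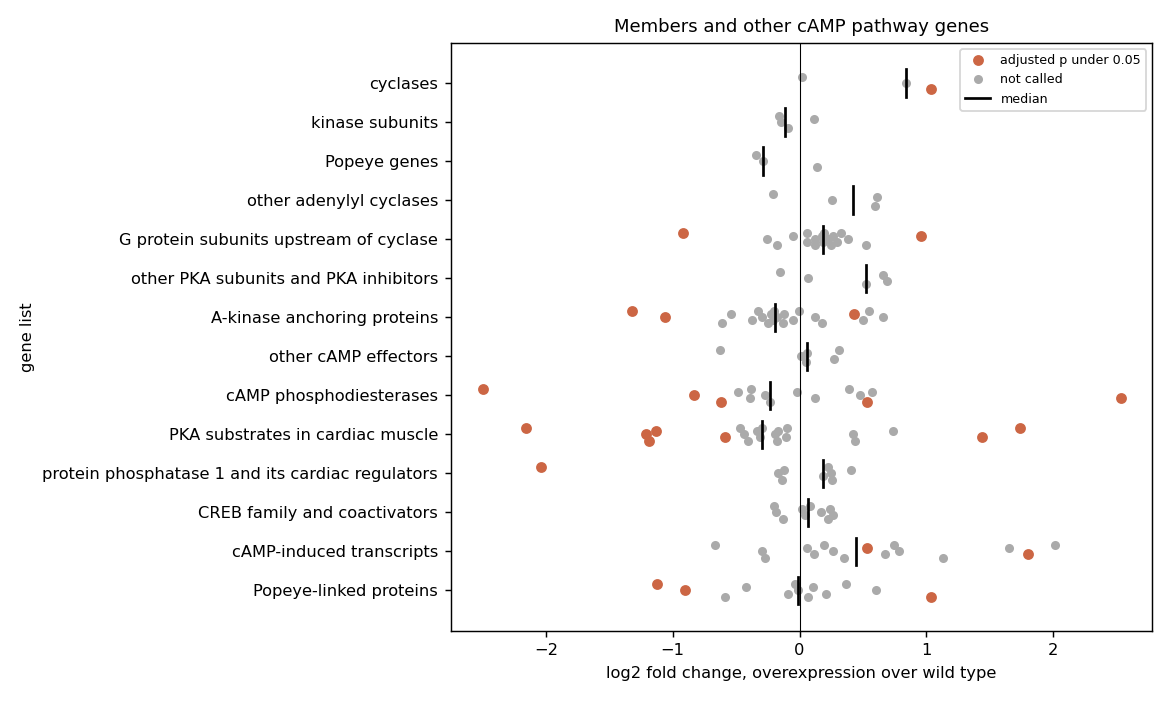
Log2 fold change of overexpression over wild type (horizontal axis) for each tested gene of the 3 lists holding the 10 genes and of the 11 lists of other pathway genes (vertical axis); orange points have an adjusted p under 0.05 and black bars mark list medians. Adcy9 is the orange point among the cyclases, and none of the kinase subunit or Popeye genes is orange.

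The markers of other cell types were read beside these values. Across all tested genes, 1.55% rose and 3.29% fell. Of 15 smooth muscle and pericyte markers, 3 rose and 0 fell, with a summed level of 1283 to 1564 CPM in wild type and 2101 to 2600 CPM in overexpression. Most of that gap was Acta2, smooth muscle actin, at 24.1 ± 10.8 (SD, n = 3) and 798 ± 161 CPM (SD, n = 4, adjusted p = 0.000137, edgeR), while Des stood at 724 ± 112 and 751 ± 135 CPM (adjusted p = 0.893). Cspg4 rose from 24.6 ± 3.19 to 62.3 ± 14.5 CPM (adjusted p = 0.00592) and was called under all 19 alternatives. At an unadjusted p under 0.05, 9 of the 15 were higher and 0 lower, beside 9.14% higher and 10% lower among all tested genes. Of 8 tested sinoatrial node markers 2 rose and 0 fell, and the 10 listed summed to 125 to 176 and 190 to 334 CPM. The largest part of that gap was Cpne5, at 8.33 ± 2.79 and 83.9 ± 40.9 CPM (adjusted p = 0.0123). Cpne5 lost its call with no filter (0.0632) and without wild type replicate 1 (0.077), 2 (0.0597) or 3 (0.0686). Hcn4, the other node marker called higher, stood at 0.269 ± 0.256 and 5.996 ± 1.32 CPM (adjusted p = 0.0011). Hcn4 had 6 counts in total in wild type and 179 in overexpression, and was called under all 19 alternatives. In wild type, ventricular cardiomyocyte markers (8 genes, 1 of 7 tested called lower) had sums of 5538 to 7020 CPM. Their sums with overexpression were 2622 to 3501 CPM. Ankrd1 made most of that gap, at 3037.5 ± 637 and 777 ± 451 CPM (adjusted p = 0.0288). Ankrd1 lost its call under 7 of the 19 alternatives. Lpl stood at 1800 ± 354 and 1201 ± 115 CPM (adjusted p = 0.0671). Log2 fold changes were 2 positive, Myl2 among them, and 5 negative. Myl2 stood at 0.716, 0.282 and 0.493 CPM in wild type. Overexpression replicates 1 to 4 held 0, 45.3, 1.39 and 1.28 CPM of Myl2 (adjusted p = 0.296). Lung and airway markers (8 genes, with Sftpc at 0 in every library) summed to 1.07 to 1.70 and 6.09 to 13.5 CPM, and the 1 tested, Sftpa1, rose. Nerve and Schwann cell markers (11 genes, 1 of 3 tested called higher) summed to 62.9 to 68.8 and 81.1 to 96.7 CPM, with Th, Chat and Snap25 at 0 in every library.

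No marker passed the edgeR test in 5 other lists. Among all tested genes, 9.14% were higher and 10% lower at an unadjusted p under 0.05. Fibroblast markers (13 genes, 7 higher at an unadjusted p under 0.05, 2 higher with DESeq2, 0 with limma-voom) overlapped, at 11880 to 16790 and 16390 to 19930 CPM. Endothelial markers (12 genes, 1 lower at an unadjusted p under 0.05, 1 lower with DESeq2, 0 with limma-voom) summed to 3183 to 3408 and 2668 to 3153 CPM. Macrophage and leukocyte markers summed to 567 to 790 and 701 to 966 CPM, adipocyte markers to 338 to 446 and 265 to 381 CPM, and skeletal muscle markers to 1223 to 1859 and 990.3 to 1271 CPM, with overlapping groups in each and 0 called by DESeq2 or limma-voom. At an unadjusted p under 0.05 these lists had 0, 1 and 1 markers lower and 0 higher. Most of the adipocyte sum was Fabp4, at 257 ± 25.2 (SD, n = 3) and 210 ± 72.9 CPM (SD, n = 4). Adipoq, Cfd and Cidec were each highest in overexpression replicate 2, at 17.5, 24.4 and 13.9 CPM. Of the 16 tested atrial cardiomyocyte markers, 6 fell and 0 rose, beside 3.29% and 1.55% of all tested genes. Of the 6, 2 are Pln and Ryr2, counted above among the PKA substrates. The part of these shifts in the levels of Adcy9, Adcy5, Bves or the other genes was not tested.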

How the data were processed

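The deposited table holds whole-number counts per gene for 7 libraries. The submitters' processing notes list mm10, STAR, DESeq2 and HTSeq 0.6.0 for the authors' work; neither the role of each nor the strand setting is given in the sources used here. One label names polyA selection and the labels' protocol names removal of ribosomal RNA. Entries naming no gene were left out: 23.4% to 30.5% of reads had no feature, 37.1% to 43.4% were not unique and 0.101% to 0.254% were ambiguous.

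Genes were filtered with filterByExpr (minimum count 10, minimum total 15), scaled with TMM and tested two-sided with edgeR 4.0.16 in R 4.3.3 on all 7 libraries with no covariate. Intervals are the log2 fold change ± SE times the t quantile for 95%. log2 CPM used a prior count of 2. Limma-voom (limma 3.58.1) and DESeq2 1.42.0 were alternatives, as were other scalings, filters, a replicate block and leaving out each library; a fit of female libraries only was added after seeing the data. The fits were tested on simulated data. Lengths are exon unions of GENCODE M21. Outside the 10 genes and Zfpm2, up to 3 called genes with the smallest p were named per pathway list. Up to 3 tested genes of mean CPM at least 1 were named for likeness to a called gene. Adcy1, Adcy7, Gnas, Akap9, Kcnq1, Des, Myl2, Fabp4, Adipoq, Cfd and Cidec were added after their values were seen. Of these, Des, Myl2, Fabp4, Adipoq, Cfd and Cidec were not followed under the alternatives. Marker lists are given mainly as sums and counts. The 10 genes and all lists were chosen with earlier results of these data known.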

Additional observations from a re-analysis of the deposited data

Results flagged for a closer look

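Of 50 groups of 4 overexpression libraries, 6 had 1 library far from the rest, judged by its gap to the nearest library as a share of the group's range (Dixon's 95% critical value for 4 samples, 0.829); chance gives about 1 in 20. For Bves the share was 0.933, with overexpression replicate 3 at 39.7 CPM above the other 3 at 33.1 to 33.5 CPM. For Popdc2 it was 0.84, with replicate 2 at 299 CPM below 423 to 447 CPM. For Gnai1 it was 0.84, with replicate 4 at 45.4 CPM above 35.4 to 37.0 CPM. For the regulatory to catalytic subunit ratio it was 0.941, with replicate 1 at 2.34 above 1.27 to 1.32. For Adcy7 it was 0.914, with replicate 1 at 162 CPM above 114 to 118 CPM, and for Gnas 0.861, with replicate 1 at 574 CPM below 657 to 671 CPM.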

How the results depend on the processing

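Of the 10 genes, 1 was called higher in the reported fit (1.55% of all tested genes) and 2 with library totals (3.34%). Sarcomere scaling called 4 higher (20%), DESeq2 called 2 (3%) and the replicate block called 2 (0.97%). Leaving out 1 library gave 1 to 2 (0.556% to 3.74%). The added gene was Adcy5 (with Prkaca, adjusted p = 0.0382, and Popdc2, adjusted p = 0.0364, on the sarcomere scale), at an adjusted p of 0.0464 with the replicate block. None was called lower under any of the 19 alternatives, where 1.33% to 4.99% of all tested genes were. Of the other pathway genes, 7 were called higher in the reported fit, beside the same shares of all genes in each setting. The number was 18 with library totals, 49 with sarcomere scaling, 17 with DESeq2, 4 with the replicate block and 3 to 16 with 1 library left out. Called lower were 14 (3.29% of all genes), against 11 with library totals (2.21%), 10 with sarcomere scaling (1.33%) and 18 with DESeq2 (4.63%). The replicate block gave 11 lower (1.9%), and leaving out 1 library gave 7 to 14 (1.34% to 4.99%). Some log2 fold changes changed sign. Adcy6 was −0.0490 and Prkaca −0.0162 with the replicate block, and they ran from −0.0588 to 0.13 and from −0.0140 to 0.21 with 1 library left out. Prkacb was 0.0370 with library totals and 0.34 on the sarcomere scale, where Prkar1a was 0.29, Prkar2a 0.26, Bves 0.14 and Popdc3 0.0744; Akap9 was 0.137 there. The log2 difference of the Prkar1a to Prkar2a ratio was −0.22 in female libraries only and −0.14 to 0.11 with 1 library left out, and that of the Popdc3 to Bves ratio was −0.18 to 0.0266. The cause was not tested. Same-numbered libraries deviated together only weakly (r = 0.0789, 0.0136 and 0.072), so the numbers were not taken to pair them; with the replicate block, Gnao1 (adjusted p = 0.0549), Kcnq1 (0.073), Synm (0.114), Pde4b (0.0896) and Fos (0.0867) lost their calls. Popdc3 had 70 to 142 counts per library, which limits its precision.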
